A study of Saccharomyces cerevisiae with 30 samples.

Results

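The proteasome of budding yeast was followed here through the mRNAs of 42 genes, taken as a fixed list of gene identifiers: the 14 subunits of the 20S core, the 19 subunits of the 19S regulatory particle and 9 factors that assemble or cap the complex. The 19 regulatory subunits were divided into the base (10 genes) and the lid (9 genes). The auxin and DZA tables list 7126 features and the diamide files 6777, and all 42 genes were found in both kinds of file and passed the filter on low values in every comparison. The list was drawn up by function, with no measured value, but with earlier results of these data known.

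The study profiled the RNA left after rRNA removal in Saccharomyces cerevisiae cells of the BY4741 background, grown to mid-log phase in rich medium, in 30 samples. In the auxin experiments every strain carried OsTIR1, the plant adapter that directs a degron-tagged protein to destruction, under the GPD1 promoter, together with RPB3-3xFLAG. The degron strains LAS1-AID, RAT1-AID, RRP17-AID and RRP44-AID in addition had the named rRNA-processing nuclease fused to a 3xV5-IAA7 degron, and WT had no degron. Each strain was treated with 100 µM auxin for 20 min or mock-treated, with 2 libraries per group. WT cells without a degron system were treated with 15 µg/ml DZA (diazaborine, an inhibitor of the ribosome maturation factor Drg1) for 15 or 45 min, or with 0.1% DMSO for the same times, again with 2 libraries per group. A strain with RPB3-3xFLAG was sampled 15 min after 1.5 mM diamide, a thiol oxidant, and at 0 min, with 1 library each. The degron removes protein and not mRNA, so the transcript of a tagged gene does not check the depletion.

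The 26S proteasome degrades proteins marked with ubiquitin. Its core is a barrel of alpha and beta rings with the proteolytic sites inside, the base holds a ring of ATPases that unfold the substrate, and the lid holds the deubiquitinase that removes the ubiquitin chain. Dedicated chaperones build it: Ump1 and the pairs Poc1-Add66 and Irc25-Poc4 act on the core, while Nas2, Nas6 and Hsm3 act on the base. In yeast the transcription factor Rpn4, itself a short-lived substrate of the proteasome, binds an element called PACE (proteasome-associated control element) before most subunit genes.

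The letters of that element were searched in the 300 bases before each coding start of the R64 assembly, with RefSeq gene models, because they are the sequence feature that the subunit genes share. The word GGTGGCAAA was found, on either strand, before 27 of the 33 subunit genes (81.8%), against 73 of 6001 protein-coding genes (1.22%). It was found before 12 of 14 core, 8 of 10 base and 7 of 9 lid genes and before 0 of 9 assembly genes. The matches lay 76 to 175 bases before the coding start, with a median of 112, 19 on the strand of the gene and 8 on the other. Examples are shown for some of the genes with a match that are named below. The matched word is in capitals with 10 bases on either side, each read 5′ to 3′ on the strand named. Genes without a match, such as UMP1 and BLM10, are not shown.
PRE8, chrXIII:86841-86869, minus strand: agcttattaaGGTGGCAAAattgtccccg
PRE4, chrVI:249959-249987, plus strand: acgtatttaaGGTGGCAAAttctaaacca
RPT2, chrIV:437906-437934, plus strand: gtttttctccGGTGGCAAAtgtctctttt
RPT3, chrIV:1261495-1261523, plus strand: ctgaaagtaaGGTGGCAAAatagtaaatc
RPN7, chrXVI:742290-742318, minus strand: atcctcaatgGGTGGCAAActtaacttat
TMC1, chrXV:427457-427485, minus strand: agaagggggcGGTGGCAAAgactgcatcg
POC1, chrXII:548827-548854, minus strand: cgtggcaataGGTGGCAAcaggcgaaat

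PRE8 (YML092C) and PRE4 (YFR050C) encode core subunits, RPT2 (YDL007W) and RPT3 (YDR394W) encode ATPases of the base, and RPN7 (YPR108W) a scaffold subunit of the lid. TMC1 (YOR052C) is not a member of the list but a zinc-finger gene of the same pathway. POC1 (YLR199C) was the one assembly gene with the shorter word GGTGGCAA, which lies within the PACE word and was found before 98 of 6001 genes (1.63%). The subunit genes without a PACE match were PRE5, PUP1, RPN10, RPN13, RPN8 and SEM1. The heat shock element, searched as GAANNTTCNNGAA on both strands, was found before 0 of 42 members and 0.867% of all genes, and the stress response element CCCCT before 9 of 42 members (21.4%) and 22.2% of all genes. A match is a description of letters in this window and does not show a bound site.

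**Figure D1:**
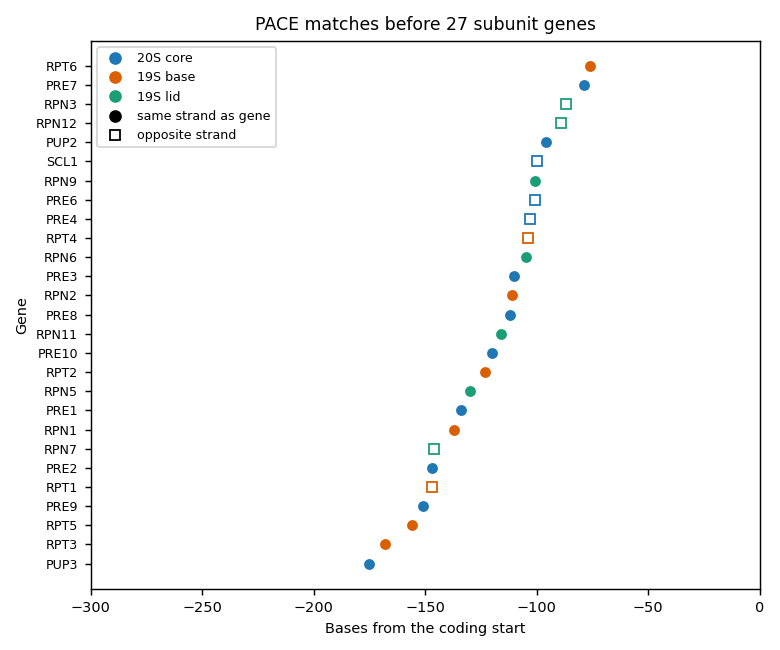
Position of the PACE word before 27 subunit genes of the proteasome, in bases from the coding start (x axis), one gene per row, coloured by core, base or lid, with filled circles on the strand of the gene and open squares on the other. The matches lie between 76 and 175 bases before the coding start.

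Levels between genes can be set side by side only per length, which the diamide files allow. At 15 min of diamide the core subunits had 99.4 to 148 RPKM (reads scaled to feature length and library size), and at 0 min 64.8 to 105 RPKM. The base ranged from 77.2 to 131 RPKM at 15 min and from 50.9 to 104 RPKM at 0 min, and the lid from 75.4 to 105 RPKM at 15 min and from 53.3 to 79.4 RPKM at 0 min. Subunit mRNAs thus lay within a narrow range, above the median of all features, 12.4 RPKM at 15 min and 13.8 RPKM at 0 min. The assembly genes were lower and more spread, at 9.42 to 77.5 RPKM at 15 min and 7.53 to 51.5 RPKM at 0 min. UMP1, the chaperone enclosed in the half-built core, was the highest of them, with 77.5 RPKM at 15 min and 51.5 RPKM at 0 min.

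Across the 26 libraries whose reads could be recovered, the reads on features ranged from 15014154 to 99585064. The strain background was checked with marker genes: STE2, a gene of the a mating type, had at least 551 CPM (reads scaled to the library total) in every library, whereas the alpha-type gene STE3 had at most 4.13, and URA3, deleted in this background, had 0. MFA1, also taken as present, had at least 40.6 CPM. Of the other markers taken as absent, MET15 had at most 0.0367, MFALPHA1 at most 2.44 and LEU2 at most 6.32 CPM. LEU2 had 308 and 211 normalized counts in RAT1-AID auxin and 54.4 and 77.9 in mock libraries. Values below are the authors' normalized counts, and fold changes are log2 differences of the normalized count plus 1, treated over control. In these bulk libraries a change in every cell and one in a share of the cells cannot be told apart. A call means a Benjamini-Hochberg adjusted p under 0.05 over all features tested in limma.

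Inhibition of ribosome maturation with DZA for 45 min raised nearly the whole list. Of the 42 members 37 were called higher (88.1%, against 23.7% of 6476 features called higher), and 1 was called lower (against 23.7% of features called lower). All 14 core, all 10 base and 8 of 9 lid subunits rose, with median log2 fold changes of 0.88, 0.92 and 0.87, while the median of all features was -0.01. The subunits were close to each other: 32 of 33 were called higher, and their log2 fold changes had an SD of 0.17 among genes. Of the 9 assembly genes 5 rose and 1 fell, with a median of 0.32 and a range from -0.60 to 1.28. Leaving out any one of the 4 libraries gave 36 or 37 members higher and 1 lower.

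In the core the largest change was that of PRE8, an alpha-ring subunit, with 16098 and 15389 normalized counts in the DZA libraries and 7665 and 6887 in the DMSO libraries. It rose by a log2 fold change of 1.12 ± 0.07 (SE, limma adjusted p = 0.000937). PUP3, a beta-ring subunit, changed least, with 15329 and 14479 counts under DZA and 9706 and 8699 under DMSO, a log2 fold change of 0.70 ± 0.07. Even for this gene the DZA and DMSO libraries did not overlap. PRE9, the only core subunit that yeast can lose and live, had 19822 and 22022 counts under DZA and 11604 and 12007 under DMSO (log2 fold change 0.82 ± 0.07). The alpha and beta rings had medians of 0.90 and 0.88, with 7 of 7 genes called higher in each.

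In the regulatory particle RPT2, an ATPase, had 27822 and 28753 counts under DZA and 11687 and 13687 under DMSO, a 2.24-fold rise. RPN13, a ubiquitin receptor of the base, had 7185 and 7503 counts under DZA and 4872 and 5059 under DMSO, a 1.48-fold rise. The lid subunit RPN7 had 33287 and 34148 counts under DZA and 15251 and 15281 under DMSO, 2.21-fold higher. SEM1, the smallest lid subunit, was the only subunit without a call: 11336 and 7516 counts under DZA overlapped 8202 and 6534 under DMSO (log2 fold change 0.33 ± 0.23, limma adjusted p = 0.29). In the diamide files the interval of SEM1 shares 22.9% of its length with CDC40 on the opposite strand. Whether the intervals behind the DZA counts also overlap was not tested.

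The assembly genes split. UMP1 had 14155 and 15252 counts under DZA and 5764 and 6375 under DMSO, the largest rise of the list at 2.42-fold (log2 fold change 1.28 ± 0.08). BLM10, which encodes a cap that binds the ends of the core, had 55049 and 56857 counts under DZA and 23222 and 23713 under DMSO (1.25 ± 0.05). POC1 had 5716 and 6209 counts under DZA and 2446 and 2692 under DMSO (1.21 ± 0.08). These 3 rises exceeded those of all 33 subunits in size, and none of the 3 genes had the full PACE word. ADD66, the partner of POC1, rose by 0.73 and NAS2, a base chaperone, by 0.32. POC4, a partner in the other core chaperone pair, fell, with 718 and 737 counts under DZA and 1157 and 1046 under DMSO (-0.60 ± 0.09, limma adjusted p = 0.0079). Its partner IRC25 had 1835 and 1653 counts under DZA and 1920 and 1637 under DMSO, with no call (-0.03 ± 0.11). The base chaperones NAS6 and HSM3 had log2 fold changes of 0.22 and 0.02 with no call.

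**Figure D2:**
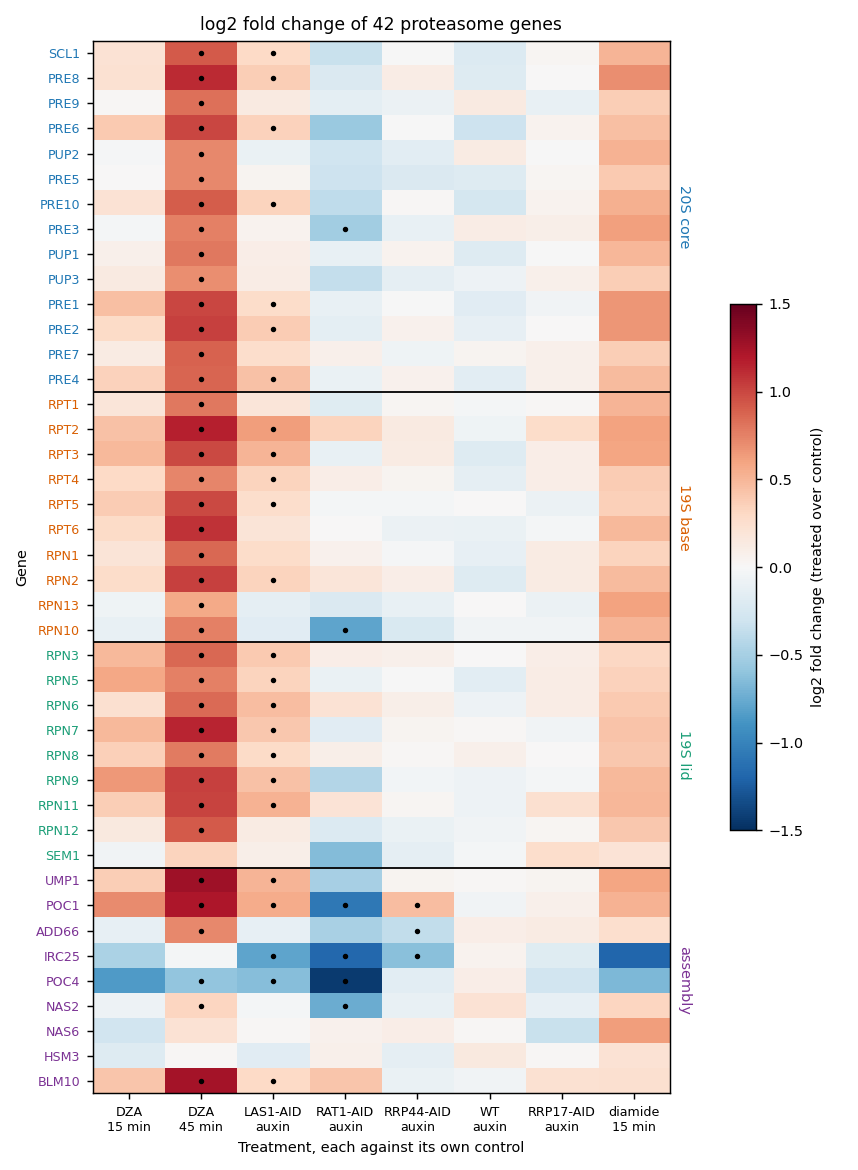
log2 fold change of each of the 42 genes (rows, coloured by group) in 8 treatments against their own controls (columns), on a colour scale from -1.5 to 1.5, with dots where limma gave an adjusted p under 0.05. RRP17-AID and diamide had no test. At 45 min of DZA 40 of 42 genes are positive, and IRC25 and POC4 are negative in most of the other treatments.

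After 15 min of DZA no member was called (against 3.8% of 6311 features called higher and 1.13% called lower). limma and edgeR each called 0 members, DESeq2 called 4 higher and 1 lower, and without adjustment limma had p under 0.05 for 9 higher and 2 lower members. The shares of 3.8% and 1.13% hold for adjusted limma calls only. Shares of all features for DESeq2 and for unadjusted p are not given. The median log2 fold changes were 0.17 in the core, 0.28 in the base, 0.37 in the lid and -0.13 in the assembly genes, with a median of -0.02 over all features. Leaving out 1 library changed the number of calls. Such a fit has 1 sample in that group and estimates the spread of a gene from the other group alone. It therefore cannot show why no member was called, and the cause was not tested.

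The highest subunits at 15 min were not the highest at 45 min. RPN9, a lid scaffold subunit, had 11939 and 11684 counts under DZA and 9856 and 5782 under DMSO (log2 fold change 0.65 ± 0.27), so that the DMSO libraries were further apart than the groups. RPT3 had 12905 and 13133 counts under DZA and 9141 and 9417 under DMSO (0.49 ± 0.12, limma adjusted p = 0.085). PRE1, a beta-ring subunit, had 10717 and 10454 counts under DZA and 8938 and 6654 under DMSO (0.46 ± 0.18). In these 3 genes both DZA libraries lay above both DMSO libraries, which can arise by chance with 2 libraries per group. The lowest of the base and lid overlapped between groups: RPN10, a ubiquitin receptor, had 6155 and 6441 counts under DZA and 5903 and 7876 under DMSO, and SEM1 had 5136 and 3672 under DZA and 4161 and 4849 under DMSO. Their log2 fold changes were -0.11 ± 0.18 and -0.05 ± 0.21. PRE3, the caspase-like beta subunit, had 5759 and 5426 counts under DZA and 5976 and 5422 under DMSO (-0.03 ± 0.13). PRE9 had 9115 and 10017 counts under DZA and 10301 and 8584 under DMSO (0.02 ± 0.15). The last 2 genes showed no separation of the groups.

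Among the assembly genes POC1 was the highest at 15 min, with 2985 and 3166 counts under DZA and 1787 and 1967 under DMSO (log2 fold change 0.71 ± 0.15, limma adjusted p = 0.0627). POC4 was the lowest, with 521 and 438 counts under DZA and 1025 and 726 under DMSO (-0.85 ± 0.25, limma adjusted p = 0.123). Both genes were separated between the groups and both were among the 5 members that DESeq2 called. UMP1 had 5238 and 5411 counts under DZA and 3254 and 5244 under DMSO (0.37 ± 0.25), and BLM10 had 21175 and 21960 under DZA and 15056 and 17468 under DMSO (0.41 ± 0.14). RPN4, the gene of the transcription factor, had already 36322 and 33002 counts under DZA and 6870 and 5892 under DMSO, 5.44-fold higher (2.44 ± 0.14, limma adjusted p = 0.015). This call ended with no filter on low values (limma adjusted p = 0.0515) and without DZA replicate A or B (0.109 and 0.0943), at log2 fold changes of 2.37 and 2.51 without those libraries. At 45 min it had 30479 and 27661 counts under DZA and 11379 and 10354 under DMSO, 2.67-fold higher.

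The change at 45 min minus that at 15 min was tested as an interaction in edgeR on recovered reads. All 42 members had a larger log2 fold change at 45 min, by a median of 0.71, and 15 were called (against 1.81% of 6557 features called higher), with 0 called lower (against 1.66%). The called genes were 8 of the core, 4 of the base, 1 of the lid and the assembly genes ADD66 and BLM10. PRE8 gained 0.92, and RPN4 moved the other way, by -0.98 (edgeR adjusted p = 0.0353). These calls did not hold in every fit: 0 members were called with any one DZA library or any one 45-min DMSO library left out, while without DMSO 15 min replicate A or B there were 31 or 35.

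**Figure D3:**
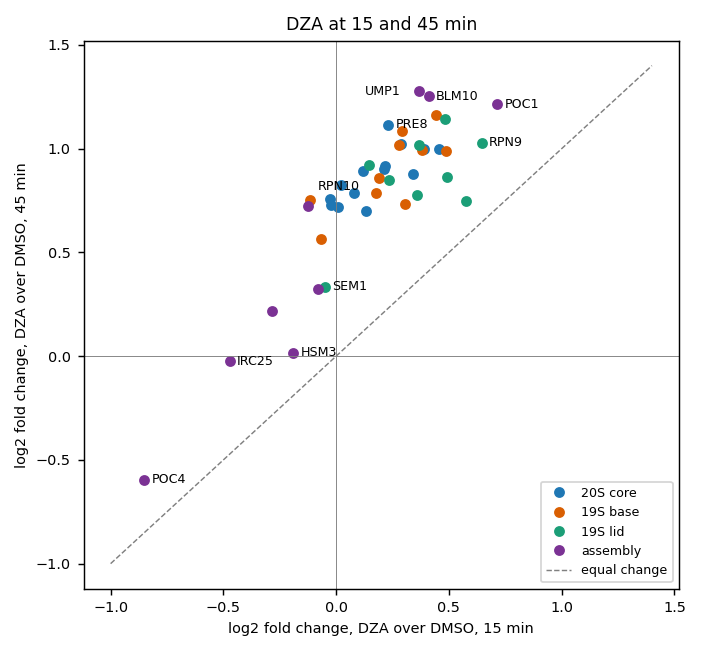
log2 fold change of the 42 genes after 15 min (x axis) and 45 min of DZA (y axis), each against DMSO of the same time, coloured by group, with a dashed line of equal change. All points lie above the line, POC4 is the lowest at both times, and the subunits lie between 0.33 and 1.16 at 45 min.

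Depletion of Las1, the endonuclease that cuts the spacer between large-subunit rRNAs, raised a part of the list, by less. In LAS1-AID cells 22 of 42 members were called higher (52.4%, against 16.5% of 6103 features called higher) and 2 lower (against 17.2% called lower). The rises were 7 of 14 in the core, 5 of 10 in the base, 7 of 9 in the lid and 3 of 9 among the assembly genes, with median log2 fold changes of 0.27, 0.27, 0.39 and -0.03. Without mock replicate A or without mock replicate B 8 members stayed above the threshold, against 25 or 26 without an auxin library.

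RPT2 rose most, with 7481 and 8679 counts in auxin and 5080 and 5369 in mock libraries (log2 fold change 0.63 ± 0.10, limma adjusted p = 0.00207, and 0.0568 with no filter on low values). RPN11, the deubiquitinase of the lid, had 3512 and 3882 counts in auxin and 2572 and 2558 in mock (0.53 ± 0.08). PRE4 had 5476 and 5206 counts in auxin and 3979 and 3908 in mock (0.44 ± 0.08). In each of these genes every auxin library lay above every mock library. The lowest of the base was RPN10, with 2957 and 2536 counts in auxin and 3053 and 3100 in mock (-0.17 ± 0.09), and the lowest of the core was PUP2, an alpha-ring subunit, with 3011 and 2798 counts in auxin and 3066 and 3139 in mock (-0.10 ± 0.08). SEM1 had 3767 and 5237 counts in auxin and 3737 and 4643 in mock (0.09 ± 0.16). PRE9 was not called either, with 4570 and 4260 counts in auxin and 4176 and 3875 in mock (0.13 ± 0.09).

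The assembly genes of LAS1-AID cells also moved in both directions. POC1 had 1440 and 1443 counts in auxin and 1046 and 921 in mock, a 1.47-fold rise. UMP1 had 3633 and 4055 counts in auxin and 2625 and 2781 in mock, 1.42-fold higher, and BLM10 had 9804 and 9694 in auxin and 7605 and 8271 in mock, 1.23-fold higher. These were the 3 assembly genes called higher. With no filter on low values none of the 3 calls held (limma adjusted p = 0.0535 for POC1, 0.0556 for UMP1 and 0.0732 for BLM10), and that of BLM10 also ended without mock replicate A (0.379), without mock replicate B (0.133) and without the eBayes trend (0.0743). ADD66 and NAS2 were not called, at -0.13 and -0.03. IRC25 fell, with 372 and 340 counts in auxin and 636 and 597 in mock (log2 fold change -0.79 ± 0.11, limma adjusted p = 0.00133), and POC4 fell, with 280 and 283 counts in auxin and 455 and 424 in mock (-0.64 ± 0.12). Both falls were called in every fit, including those without any one library. RPN4 had 11365 and 13505 counts in auxin and 4182 and 5083 in mock, 2.69-fold higher.

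RAT1-AID cells, depleted of the nuclear 5′ exonuclease Rat1, had more RPN4 mRNA, and no subunit was called higher. RPN4 had 30193 and 25438 counts in auxin and 8794 and 10201 in mock libraries, 2.93-fold higher (log2 fold change 1.55 ± 0.16, limma adjusted p = 0.00162). Of the 42 members 0 were called higher by limma (against 10.7% of 6524 features called higher), with 2 at an unadjusted p under 0.05, 0 by edgeR and 1 by DESeq2. By contrast 6 were called lower (14.3%, against 6.02% of features called lower). The medians were -0.26 in the core, -0.01 in the base, -0.10 in the lid and -0.50 in the assembly genes. With a replicate block 11 members were called lower. The 6.02% is the share in the fit without the block, and the share with it is not given. The number of calls also changed with 1 library left out.

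The falls were largest in chaperone genes. POC4 had 299 and 510 counts in auxin and 1032 and 1087 in mock (log2 fold change -1.44 ± 0.27, limma adjusted p = 0.0155, and 0.112 with no filter on low values). IRC25 had 704 and 783 counts in auxin and 1621 and 1747 in mock (-1.18 ± 0.17), and POC1 had 1070 and 1039 in auxin and 2173 and 2257 in mock (-1.07 ± 0.15). All auxin libraries were below all mock libraries in these genes. NAS2 fell by 0.74 on the log2 scale. BLM10 was the highest assembly gene, with 23328 and 22336 counts in auxin and 17356 and 16774 in mock (0.42 ± 0.13, limma adjusted p = 0.0779), the member that DESeq2 called. UMP1 had 4821 and 3086 counts in auxin and 5721 and 5222 in mock (-0.50 ± 0.22), with a limma adjusted p of 0.166, and 0.0253 with a replicate block.

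Of the subunits RPN10 fell most, with 5338 and 4466 counts in auxin and 9643 and 7400 in mock (-0.79 ± 0.18, limma adjusted p = 0.0271), although not without mock replicate A or auxin replicate B (limma adjusted p = 0.140 and 0.0722). PRE3 fell by 0.52, with 5105 and 5336 counts in auxin and 8024 and 6959 in mock. PRE6, an alpha-ring subunit, was the lowest of the core, with 10816 and 8461 counts in auxin and 13748 and 14379 in mock (-0.56 ± 0.16, limma adjusted p = 0.0581, and 0.0142 with a replicate block). In the alpha ring 7 of 7 genes had a negative log2 fold change, with 0 called, and in the beta ring 6 of 7, with PRE3 called. The share of all features with a negative value is not given. In WT cells given auxin, where no member was called, core genes ranged from -0.31 (PRE6) to 0.14 (PRE9). SEM1 had 5273 and 3968 counts in auxin and 6080 and 8435 in mock (-0.65 ± 0.21, limma adjusted p = 0.0833, and 0.0102 with the block). At the other end RPT2 had 12101 and 12698 counts in auxin and 9262 and 10366 in mock (0.34 ± 0.13), and RPN6, a lid scaffold, had 11743 and 12870 in auxin and 10293 and 10798 in mock (0.22 ± 0.13). Neither passed the test. PRE7, a beta-ring subunit, had 7352 and 7997 counts in auxin and 7475 and 7120 in mock (0.07 ± 0.13), and PRE9 had 9458 and 11820 in auxin and 12854 and 10603 in mock (-0.14 ± 0.17), both overlapping.

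**Figure D4:**
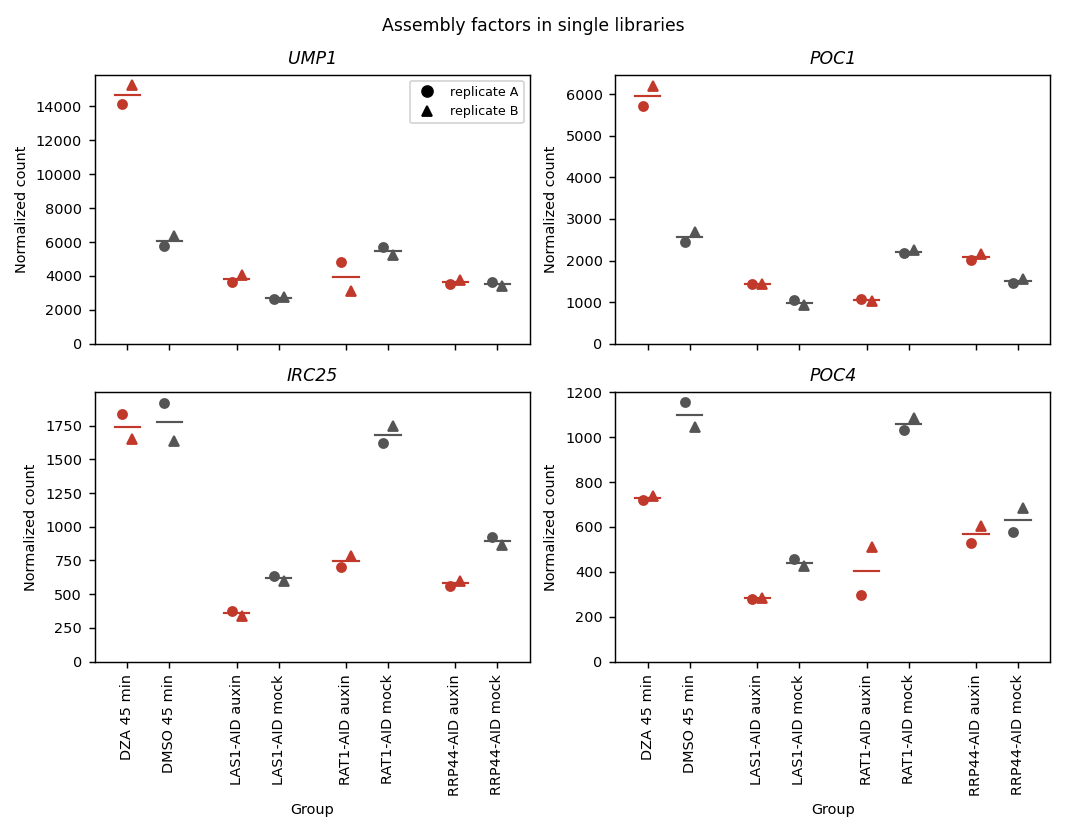
Normalized counts (y axis, from 0) of UMP1, POC1, IRC25 and POC4 in single libraries of 4 treatments (red) and their controls (grey), with circles for replicate A, triangles for replicate B and a line at the mean of each group. POC1 is higher in treated libraries of 3 experiments and lower in RAT1-AID auxin libraries, at 1070 and 1039 counts against 2173 and 2257 in mock.

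Depletion of Rrp44, the 3′ exonuclease of the exosome, left the subunits near their mock level. In RRP44-AID cells 0 of 33 subunits were called by limma, while 2 were lower and 0 higher where p was taken without adjustment, and their median log2 fold change was -0.0023. Over all 42 members 1 was called higher (against 15.1% of 6343 features) and 2 lower (against 10.2%). Without auxin replicate A 0 were called in either direction, without auxin replicate B 0 higher and 1 lower, and without mock replicate B 1 higher and 5 lower.

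All the calls were assembly genes. POC1 had 2002 and 2167 counts in auxin and 1470 and 1557 in mock, 1.38-fold higher (log2 fold change 0.46 ± 0.09, limma adjusted p = 0.0111). IRC25 fell, with 560 and 601 counts in auxin and 925 and 867 in mock (-0.63 ± 0.10), and so did ADD66, with 835 and 923 counts in auxin and 1143 and 1118 in mock (-0.36 ± 0.10). The POC1 call ended without auxin replicate A or B (limma adjusted p = 0.0526 and 0.128) and with no filter (0.0552), and the IRC25 call without auxin replicate A (0.0578). POC1 and ADD66, whose products act as a pair, were called in opposite directions. RPN4 had 14871 and 14854 counts in auxin and 6351 and 7222 in mock, 2.19-fold higher.

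The other members were not called, although the groups of some did not overlap. With 2 libraries per group such separation can arise by chance, and its share over all features was not tested. RPT2 had 7253 and 7262 counts in auxin and 6602 and 6573 in mock (0.14 ± 0.07), and RPN10 had 3557 and 3736 in auxin and 4537 and 3989 in mock (-0.22 ± 0.09). In the lid RPN6 had 6439 and 6830 counts in auxin and 6316 and 6182 in mock (0.09 ± 0.08), and SEM1 had 3533 and 3273 in auxin and 3930 and 3561 in mock (-0.14 ± 0.09). In the core PRE8 had 3361 and 4047 counts in auxin and 3340 and 3498 in mock (0.11 ± 0.10), PRE5, an alpha-ring subunit, had 3585 and 3777 in auxin and 4336 and 4228 in mock (-0.22 ± 0.08), and PRE9 had 5421 and 5975 in auxin and 6295 and 5783 in mock (-0.08 ± 0.09). PRE8 and PRE9 had auxin and mock libraries that overlapped. RPT2, RPN10, RPN6, SEM1 and PRE5 did not, but each was the highest or lowest of its group, a choice that favours separation. UMP1, with 3505 and 3746 counts in auxin and 3627 and 3429 in mock, and BLM10, with 13948 and 13064 in auxin and 14604 and 14341 in mock, had log2 fold changes of 0.04 ± 0.08 and -0.10 ± 0.08.

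WT cells with OsTIR1 and no degron served as the control for auxin itself. limma called 0 of 42 members in either direction (0.0% of 6295 features called higher and 0.0% called lower), with 0 members at an unadjusted p under 0.05, and edgeR and DESeq2 also called 0. The median log2 fold change of the 42 genes was -0.06. The highest was NAS2, with 1511 and 932 counts in auxin and 1067 and 985 in mock (0.21 ± 0.25), and the lowest PRE6, with 10541 and 11780 in auxin and 14866 and 12854 in mock (-0.31 ± 0.15).

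The auxin effect of each degron strain was then tested against that of WT, in limma interactions that share the WT libraries. For LAS1-AID 5 members were called higher than in WT (against 5.02% of 6076 features), namely RPT3, RPT2, PRE4, PRE10 and PRE8, by 0.56 to 0.69 on the log2 scale, and IRC25 was called lower, by -0.85 (against 2.52%). The shares above come from the fit without a replicate block. With the block the counts were 15 higher and 2 lower. They were 0 and 0 without either LAS1-AID mock library, without either WT mock library or without LAS1-AID auxin replicate B, 1 and 0 without LAS1-AID auxin replicate A, and 13 and 1 or 15 and 3 without WT auxin replicate A or B. For RAT1-AID 0 were called higher (against 4.27% of 6279 features) and 3 lower (against 1.19%): POC4 by -1.54, IRC25 by -1.24 and POC1 by -1.01. These were 0 without any one mock library of either strain, 1 without RAT1-AID auxin replicate A, 2 without RAT1-AID auxin replicate B or WT auxin replicate A, and 5 without WT auxin replicate B. For RRP44-AID 0 members were called higher (against 4.18% of 6199 features) and 0 lower (against 0.903%), with 1 in each direction at an unadjusted p under 0.05, 1 lower with the block, and 1 higher and 5 lower without WT auxin replicate B.

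Because POC1 moved in opposite directions, the depletions were also compared with each other, a test added after its values had been seen. The auxin effect on POC1 was lower in RAT1-AID than in LAS1-AID cells, by -1.62 ± 0.15 (limma adjusted p = 0.00447). It was also lower in RAT1-AID than in RRP44-AID cells, by -1.53 ± 0.15 (limma adjusted p = 0.00435). These values are differences of log2 fold changes and not of levels. In the first of these comparisons 3 members were called lower (against 1.18% of 6102 features) and 0 higher (against 1.26%), the others being RPN9 by -0.87 and PRE10 by -0.72, and in the second POC1 alone was called (1 lower against 0.936% of 6305 features, 0 higher against 1.24%). With the block, for which no share of all features is given, the counts were 5 and 2. In the first comparison leaving out either RAT1-AID mock library or any LAS1-AID library left 1 call, and leaving out RAT1-AID auxin replicate A or B gave 13 or 6. In the second, 0 were called without RRP44-AID auxin replicate B, and 5 or 2 without RAT1-AID auxin replicate A or B.

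The intervals of IRC25, POC1 and POC4 in the diamide files overlap genes of ribosome production on the opposite strand. The strand setting of the read counter was not given in the sources used here, so that reads of overlapping genes may not be fully separated. The interval of IRC25 shares 15.6% of its length with SDO1, a gene of large ribosomal subunit maturation, and SDO1 was itself called lower, by -0.97 in RAT1-AID, -0.57 in LAS1-AID, -0.46 in RRP44-AID and -0.40 at 45 min of DZA. POC1 shares 8.28% with NOP56, a box C/D snoRNP gene. NOP56 did not move with POC1, at 0.10 in RAT1-AID, -0.29 in LAS1-AID and -0.29 in RRP44-AID cells, and it was called lower, by -0.56, at 45 min of DZA. POC4 shares 1.17% with SNR17B, one of the genes of the U3 snoRNA, whose log2 fold changes of 0.10 in RAT1-AID, -0.11 in LAS1-AID and -0.23 at 45 min of DZA were not called. Whether these genes also overlap in the intervals behind the auxin and DZA counts was not tested. The part of any shared reads in these results was not tested either.

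In RRP17-AID cells the columns of mock A and mock B were identical for all 7126 features, which leaves 1 mock library and no test. The 42 members had a median log2 fold change of 0.03 (0.09 in auxin replicate A and -0.01 in replicate B), with 0.00 over all features. RPT2 was the highest, with 8259 and 9001 counts in auxin and 7121 in mock (0.28), and NAS6 the lowest, with 1472 and 1190 counts in auxin and 1669 in mock (-0.33). RPT2 was above and NAS6 below the mock library in both auxin libraries. RPN4, outside the list, had 11612 and 12075 counts in auxin and 6904 in mock.

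Diamide, given as a separate stress, has 1 library per time and no replicate check. All 33 subunits had more RPKM at 15 min than at 0 min, with a median log2 fold change of 0.48 on the scale of RPKM plus 0.1, against a median of -0.08 over 5760 features. The core, base and lid had medians of 0.51, 0.50 and 0.40. PRE8 had the largest rise of the list, with 122 RPKM (934 reads) at 15 min and 75.0 RPKM (482 reads) at 0 min, a log2 fold change of 0.70. IRC25 had the lowest, with 9.42 RPKM (52 reads) at 15 min and 21.6 RPKM (100 reads) at 0 min (-1.19). Besides IRC25, POC4 was the only member below its 0 min level, with 13.1 RPKM (68 reads) at 15 min and 21.0 RPKM (91 reads) at 0 min (-0.67). RPN4 had 73.2 RPKM at 15 min and 33.2 RPKM at 0 min.

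**Figure D5:**
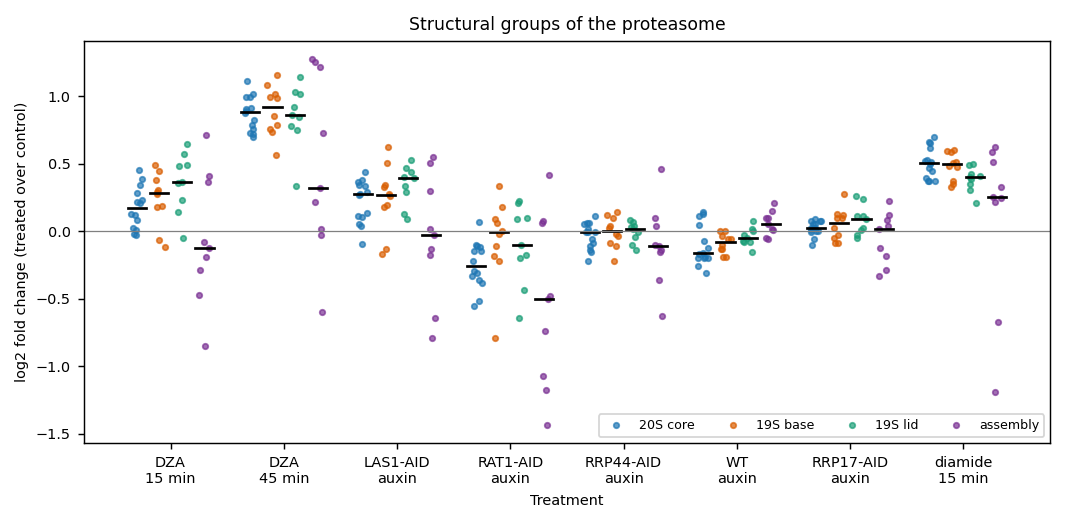
log2 fold change (y axis) of the members in each treatment against its own control, by structural group, with 1 point per gene and a black line at the group median. The core, base and lid have medians of 0.88, 0.92 and 0.87 after 45 min of DZA and of -0.26, -0.01 and -0.10 in RAT1-AID cells, and the assembly genes spread from -1.44 to 0.42 in RAT1-AID cells.

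Across the 42 members the log2 fold changes of LAS1-AID cells and of 45 min of DZA, which share no library, had a Pearson r of 0.84 (Spearman 0.79), and over the 33 subunits alone r was 0.65. LAS1-AID cells and 15 min of DZA had r of 0.90 over 42 members and 0.82 over the subunits. RAT1-AID cells and 45 min of DZA had r of 0.49 over all members and 0.40 over the subunits. These are descriptions across genes, which share gene length, annotation and read depth in both experiments, and genes are not independent replicates.

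The subunit genes with the PACE word had somewhat larger medians than those without in both treatments that raised them. After 45 min of DZA the 27 genes with the word had a median of 0.92 and 27 were called higher, and the 6 without had 0.74 and 5 were called higher (against 23.7% of all features). In LAS1-AID cells the medians were 0.33 with 18 of 27 called higher, and 0.06 with 1 of 6 (against 16.5% of all features). After diamide they were 0.48 and 0.45. In RAT1-AID cells no subunit was called higher, and both sets held negative and positive values. Of the genes without the word, RPN10 (-0.79) and SEM1 (-0.65) were the lowest of all subunits. PRE5, RPN13 and PUP1 had -0.31, -0.22 and -0.12, and RPN8 had 0.09. Genes with the word ranged from -0.56 (PRE6) to 0.34 (RPT2) in the same cells. The difference between genes with and without the word was not tested. UMP1 and BLM10, without the word, rose more than any subunit after 45 min of DZA.

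As a sum over the 33 subunits, their reads made up 16858 and 16561 CPM after 45 min of DZA and 7278 and 7337 CPM in DMSO, and 10171 and 11257 CPM in LAS1-AID auxin and 7589 and 7772 CPM in mock libraries. On the CPM scale the median of all features shifted by 0.28 after 45 min and by 0.18 after 15 min of DZA, by 0.17 in LAS1-AID, by 0.10 in RRP44-AID, by -0.04 in RAT1-AID and by -0.11 in WT cells. The subunit medians on that scale were 1.17, 0.43, 0.47, 0.11, -0.18 and -0.18 in the same order, so that the subunits exceeded the shift in both DZA times and in LAS1-AID cells.

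Around the list, 19 genes of the ubiquitin-proteasome pathway were followed for comparison. They were picked with earlier results of these data known. After 45 min of DZA 15 of 19 rose (against 23.7% of all features) and 0 fell, with a median log2 fold change of 1.05. The largest were UBI4, the polyubiquitin gene, at 2.76, TMC1 at 2.23, ECM29, a proteasome-binding scaffold, at 2.22 and DDI1, a ubiquitin shuttle, at 2.07. After 15 min of DZA 4 rose (against 3.8% of all features): RPN4, TMC1 (1.98), UFD1, a cofactor of the Cdc48 segregase (1.08), and DDI1 (0.88). In LAS1-AID cells 12 rose (against 16.5% of all features), with TMC1 at 1.82 and UBI4 at 1.16, and UBA1, the ubiquitin-activating enzyme, fell by 0.36. In RRP44-AID cells 6 rose (against 15.1% of all features), namely RPN4, TMC1 (0.87), UBI4 (0.55), UFD1 (0.38), ECM29 (0.31) and UBP6, the proteasome deubiquitinase (0.28). In RAT1-AID cells RPN4 alone was called (against 10.7% of all features called higher), and TMC1 had -0.14 ± 0.28. In WT cells limma called 0, and 0 had p under 0.05 without adjustment. RPN4 mRNA was thus higher in RAT1-AID, RRP44-AID, LAS1-AID and DZA-treated cells, whereas subunit mRNAs were called higher only in LAS1-AID cells and after 45 min of DZA, by limma in these 6 comparisons.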

How the data were processed

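The authors removed rRNA, made stranded libraries for the auxin experiments, trimmed reads with Cutadapt, aligned them with TopHat and counted them with HTSeq on R64 (sacCer3). The files deposited for DZA and auxin hold a signal that the authors made by dividing read counts by DESeq2 size factors, beside columns of their own fold changes and p-values, which were not used. For diamide the authors deposited RPKM values.

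Here limma 3.58.1 (R 4.3.3; lmFit, eBayes with trend) was fitted to log2(value + 1) of each table alone, for features with a mean of at least 10, and tests were two-sided. Calls have an adjusted p under 0.05 (Benjamini-Hochberg) over all features. edgeR 4.0.16 tested the DZA times as an interaction, and with DESeq2 1.42.0 it was an alternative on whole reads recovered from the signal (100% of values within 0.001 of a whole number). In RRP44-AID mock B reads could not be recovered, and no count test was run on that table. Diamide used features with a mean of at least 1 RPKM and a pseudocount of 0.1. Scripts were tested on simulated data.

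The auxin duplicates were grown on separate days, so equal letters pair samples, whereas for DZA no source says that letters pair. The calls reported come from fits without a replicate block unless the block is named. Among base subunits of LAS1-AID cells the block added RPN1 and RPT6 and removed no call. Their limma adjusted p was 0.0180 and 0.0282 with the block, and 0.0729 and 0.136 without it. Deviations from the group means correlated at 0.184 for LAS1-AID, 0.107 for RAT1-AID, 0.246 for RRP44-AID and 0.449 for WT, and at -0.084 and 0.577 after 15 and 45 min of DZA. An exact permutation test cannot pass with 2 libraries against 2, and p-values measure only the spread between these libraries. Members and lists were chosen with earlier results of these data known. Per-library values are given for the highest and lowest member of each structural group, for members called against the majority and for UMP1, BLM10, PRE9 and RPN4, and other genes named were chosen after their values were seen. Sequences and overlaps come from RefSeq R64 and the RPKM files' intervals. Of 6006 identifiers compared, 1006 had the same interval in both.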

Additional observations from a re-analysis of the deposited data

Results flagged for a closer look

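The change from DZA differed between 45 and 15 min for 15 members by the edgeR interaction, in every case towards a higher value at 45 min: RPT3 by 0.54, PRE4 by 0.58, RPN7 by 0.70, RPN1 by 0.71, SCL1 by 0.75, PUP1 by 0.75, PRE5 by 0.75, RPN2 by 0.78, PRE7 by 0.81, PRE3 by 0.83, RPT6 by 0.85, PRE9 by 0.85, BLM10 by 0.89, ADD66 by 0.90 and PRE8 by 0.92 on the log2 scale. All 15 calls were lost without any one DZA library.

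The auxin effect differed between RAT1-AID and WT cells for POC4 (-1.54), IRC25 (-1.24) and POC1 (-1.01), and between LAS1-AID and WT cells for IRC25 (-0.85), PRE8 (0.56), PRE10 (0.59), PRE4 (0.60), RPT2 (0.68) and RPT3 (0.69), all by limma interactions. Both sets share the WT libraries.

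Between depletions, the auxin effect in RAT1-AID minus LAS1-AID cells differed by -1.62 for POC1, -0.87 for RPN9 and -0.72 for PRE10. In RAT1-AID minus RRP44-AID cells it differed by -1.53 for POC1. These tests were chosen after the data were seen.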

How the results depend on the processing

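At 45 min of DZA every alternative gave 36 to 39 members higher and 1 lower. The DZA 15 min counts, 0 in the fit reported, became 4 higher and 1 lower with DESeq2, and ranged from 0 to 19 higher and from 0 to 5 lower with 1 library left out. In LAS1-AID cells the 22 rises became 10 with no filter on low values and 14 without the eBayes trend, and ranged from 8 to 26 with 1 library left out, with 2 to 3 falls. In RAT1-AID cells the 6 falls became 2 with no filter and 11 with a replicate block, and DESeq2 called 1 higher. In RRP44-AID cells no filter gave 0 higher and 1 lower, no trend gave 1 lower, and leaving out 1 library gave 0 to 1 higher and 0 to 5 lower.

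No source says that the letters pair the DZA samples, whose deviations correlated at -0.084 at 15 min and 0.577 at 45 min. A replicate block there gave 39 higher at 45 min, SEM1 and NAS6 being added, and left the time interaction with 0 calls, against 0 to 35 calls with 1 library left out. The LAS1-AID interaction with WT had 2 higher without trend, 15 higher and 2 lower with the replicate block, and 0 to 15 higher and 0 to 3 lower with 1 library left out. The RAT1-AID interaction ranged from 0 to 5 lower, and the RRP44-AID interaction had 1 lower with the replicate block and 0 to 1 higher and 0 to 5 lower with 1 library left out. RAT1-AID against LAS1-AID gave 5 lower with the replicate block and 1 to 13 with 1 library left out, and RAT1-AID against RRP44-AID gave 2 and 0 to 5. The cause of these moves was not tested. The replicate block moved no other count of calls by over 1.5 times.

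Uncalled log2 fold changes near 0 changed sign with 1 library left out: at 15 min of DZA PRE3 (-0.10 to 0.044), PRE9 (-0.11 to 0.15), RPN10 (-0.32 to 0.093) and SEM1 (-0.29 to 0.19), in LAS1-AID cells SEM1 (-0.15 to 0.33), in RAT1-AID cells PRE9 (-0.30 to 0.018), in RRP44-AID cells PRE8 (-0.024 to 0.24) and UMP1 (-0.0089 to 0.087), and in WT cells NAS2 (-0.14 to 0.56). The RRP17-AID median ranged from -0.0061 to 0.089 with 1 auxin library left out. The diamide median was 0.54 when centred on the median of all features. The CPM scale moved the medians of the 42 members to 1.16 and 0.42 at 45 and 15 min of DZA, 0.46 in LAS1-AID and -0.16 in WT cells.

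With 2 libraries per group the fits rest on a spread pooled over genes, and a fit without 1 library assumes that the lone sample of its group varies like the others. Of the diamide values, that of IRC25 at 15 min rests on 52 reads. No paired analysis was possible for RRP17-AID or diamide because neither has a test, and edgeR and DESeq2 were not run for RRP44-AID cells.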
